A study of Mus musculus with 12 samples.

Results

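The vasculature of the brain was read through 10 genes, 7 that mark endothelial cells (Cldn5, Cdh5, Esam, Pecam1, Emcn, Tek and Tie1) and 3 that mark mural cells, the pericytes and smooth muscle cells around vessels (Vtn, Rgs5 and Pdgfrb). They were taken by gene name from a table of 55862 genes, of which 35208 had a value above 0 in any sample, and all 10 were found. RNA of mouse brain cells was sequenced in 12 samples, 3 in each of 4 groups. The strain of every sample is C57BL/6 in the labels, while the study's methods give C57BL/6 for the ASTs and C57BL/6J for the P56-NPCs and P0-NPCs. ASTs were primary astrocytes of newborn cortex, grown in serum and taken at day 0, and A-iSCs were such cells after 5 days of sphere culture on agarose. P56-NPCs were cells dissociated from the adult subependymal zone (postnatal day 56), and P0-NPCs were cells dissociated from newborn hippocampus (postnatal day 0). The study used both as positive controls for neural progenitor cells. No sort or marker selection of either suspension is described in the study's methods, so each can hold a mix of the cell types of its tissue. The methods do describe a strainer and 3 rounds of centrifugation for P56-NPCs, and centrifugation for P0-NPCs. How these steps changed the mix of cells was not tested. The suspensions differ in age, region and dissociation, and these cannot be told apart. The labels do not say whether the 3 samples of a group came from separate animals or cultures. The study's methods speak of 3 independent experiments in general, without naming the sequenced samples, so the p-values measure a spread between samples that may be technical.

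Endothelial cells line vessels and are held together by tight and adherens junctions, which in the brain form the blood-brain barrier. Pericytes sit on the outer wall of capillaries and are drawn there by PDGF-B from endothelium acting on the receptor encoded by Pdgfrb, while the angiopoietins act on the endothelial receptor Tek. Astrocytes contact vessels with their endfeet and are commonly grown from newborn cortex, a tissue that also holds vessels. The study's methods state that the meninges were removed before the ASTs were isolated.

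Levels are given as FPKM, fragments per kilobase of gene length scaled for library size, which allows genes to be compared with each other. Libraries held between 17077780 and 24452419 counted fragments. The library size that the FPKM imply differed from this count by group. It was 0.744 to 0.779 times the count in P56-NPCs and 0.941 to 0.985 times in ASTs. In A-iSCs it was 1.10 to 1.15 times and in P0-NPCs 1.15 to 1.22 times the count. Folds of FPKM between groups carry this factor. The summed FPKM of an 8-gene astrocyte list ranged from 143 to 161 in ASTs, 1211 to 2466 in A-iSCs, 2834 to 3072 in P56-NPCs and 238 to 303 in P0-NPCs. In P0-NPCs against ASTs, 4 of its genes were higher and 4 lower. A 5-gene neural stem cell list summed to 118 to 153 FPKM in P56-NPCs and 141 to 144 FPKM in P0-NPCs, below the 334 to 360 FPKM of ASTs. P56-NPCs also held 8844 to 10050 FPKM of a 7-gene oligodendrocyte list, and P0-NPCs 852 to 1030 FPKM of a 7-gene neuron list. Mitochondrial genes took 16.5% to 17.6% of fragments in P56-NPCs and 2.94% to 7.03% in the other groups. Within ASTs, replicate 2 stood apart from the other two (chi-square per degree of freedom over genes of 39.5 and 40.9, against 2.51 between those), and within A-iSCs replicate 3 did (95.1 and 75.5, against 12.3). Leaving out either one left 3 members called in A-iSCs against ASTs, as with all samples.

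The promoter windows of 3 members are shown because Cldn5 and Rgs5 were among the 3 highest members in P0-NPCs, an endothelial and a mural gene, and Tie1 was near 0 in both cultured groups. Each window ran from 250 bases before to 50 bases after RefSeq's gene start on GRCm38.p6. Windows on the chromosome of Pdgfrb were left out of the search. Such windows were read for 6 of the 10 members (Cldn5, Emcn, Tek, Tie1, Vtn and Rgs5). These windows are placed by RefSeq's start, which is that of the deposited table for Cldn5, Tek and Rgs5 and lies inside the table's gene by 11 bases for Emcn, 29 for Vtn and 212 for Tie1. The windows of Cldn5 (chr16:18776597-18776896, + strand), Tie1 (chr4:118489800-118490099, - strand) and Rgs5 (chr1:169655251-169655550, + strand) read 5′ to 3′, with capitals marking a match on either strand of the letters AGGAAG, which lie in sites of ETS factors, or AGATAA, which factors of the GATA family bind, or ACAATG, which lie in sites of SOX factors.
Cldn5: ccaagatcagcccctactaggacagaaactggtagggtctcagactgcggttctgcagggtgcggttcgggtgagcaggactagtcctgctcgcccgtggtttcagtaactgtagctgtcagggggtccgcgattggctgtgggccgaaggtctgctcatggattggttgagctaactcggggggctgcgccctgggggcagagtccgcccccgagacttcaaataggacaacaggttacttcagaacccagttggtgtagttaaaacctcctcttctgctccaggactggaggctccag
Tie1: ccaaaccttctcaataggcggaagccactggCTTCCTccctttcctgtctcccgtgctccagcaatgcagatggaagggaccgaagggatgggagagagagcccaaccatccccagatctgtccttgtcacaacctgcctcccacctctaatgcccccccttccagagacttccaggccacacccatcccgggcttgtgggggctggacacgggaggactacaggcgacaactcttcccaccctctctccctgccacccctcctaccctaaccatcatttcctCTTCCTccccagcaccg
Rgs5: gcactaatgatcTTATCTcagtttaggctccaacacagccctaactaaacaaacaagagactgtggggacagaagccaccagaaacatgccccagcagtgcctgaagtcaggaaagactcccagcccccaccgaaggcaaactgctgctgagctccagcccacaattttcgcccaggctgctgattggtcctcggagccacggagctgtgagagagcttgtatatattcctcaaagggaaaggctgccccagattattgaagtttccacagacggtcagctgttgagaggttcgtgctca

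AGGAAG was found in 2 of the 6 windows, those of Emcn and Tie1, each with 2 matches, and in 35.4% of the windows of 32851 RefSeq promoters. AGATAA was found in 2, those of Tek and Rgs5, and in 11.2% of all promoters. ACAATG was found in 0 of the 6 and in 12.6% of all promoters. The Cldn5 and Vtn windows held none of these letters, although the level of both genes was among the highest of the members in P0-NPCs.

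All 10 members had their highest group mean in P0-NPCs, the suspension of newborn hippocampus. By mean FPKM, their order there was Vtn, Cldn5, Rgs5, Pdgfrb, Cdh5, Esam, Tie1, Pecam1, Tek and Emcn, from 56.7 ± 5.2 down to 1.26 ± 0.32 (SD, n = 3). Between neighbours in this order, the samples overlapped for Vtn and Cldn5, for Esam and Tie1, and for Pecam1 and Tek. In bulk RNA, fewer cells of a type and less RNA per cell cannot be told apart, here and in every result that follows.

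**Figure D1:**
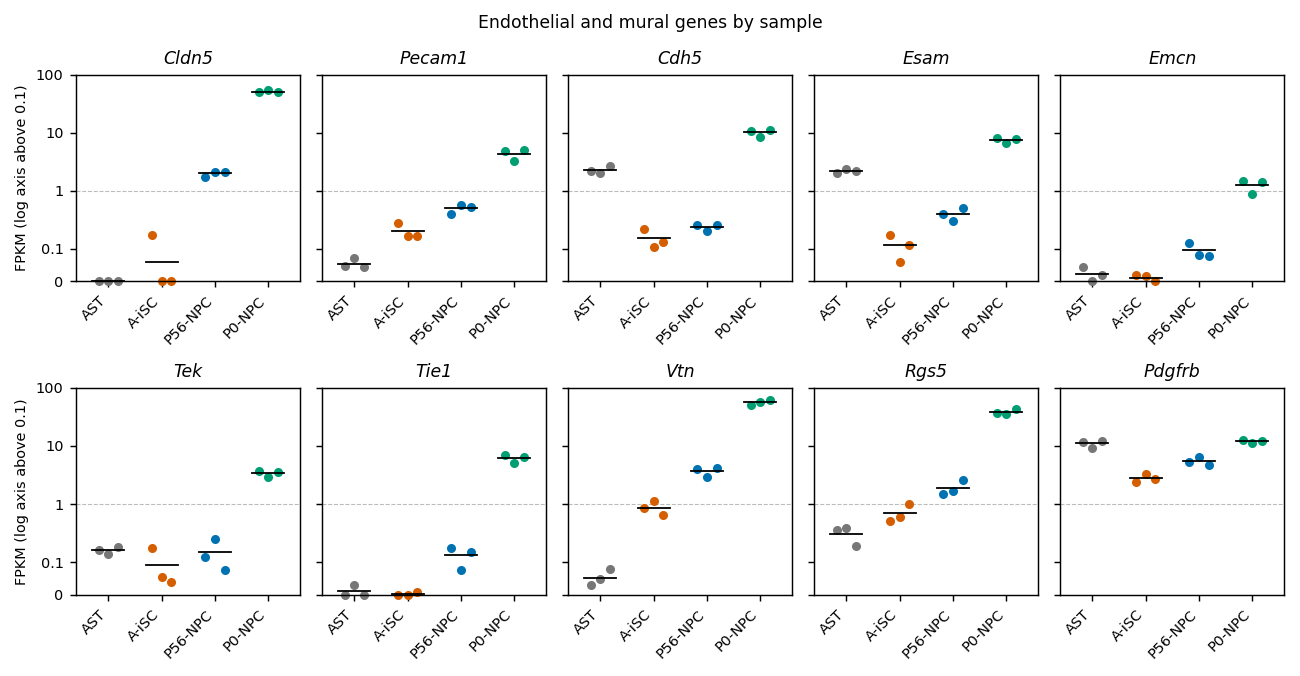
FPKM of each of the 10 genes (vertical axis, linear below 0.1 and logarithmic above) in the 12 samples, by group. Points are samples, black bars group means, and the dashed line marks 1 FPKM, the level used to filter genes. P0-NPC samples lie above all others for every gene but Pdgfrb, whose AST samples (9.32 to 12.2) overlap those of P0-NPCs (11.4 to 12.8).

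Cldn5 (ENSMUSG00000041378, chr16:18776847-18778262 on GRCm38), the main tight junction claudin of brain endothelium, was at 0 FPKM in all 3 AST libraries, and at 0.175, 0 and 0 FPKM in A-iSCs. The same gene reached 1.71, 2.11 and 2.14 FPKM in P56-NPCs and 49.6, 53.4 and 49.4 FPKM in P0-NPCs. No AST library held a Cldn5 fragment, which allows up to 0.115 FPKM at 3 fragments per library. The groups other than ASTs and A-iSCs did not overlap. The P0-NPC mean was 25.5 times that of P56-NPCs (difference in log2(FPKM + 1), P56-NPCs minus P0-NPCs, -4.12 ± 0.08 (SE), adjusted p = 2.1e-08, limma) and at least 441.7-fold higher than in ASTs. P56-NPCs were at least 17.3-fold higher than ASTs (1.58 ± 0.09, adjusted p = 3.6e-06), both bounds being set against 3 fragments per AST library.

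Cdh5 (ENSMUSG00000031871, chr8:104101625-104144511) encodes VE-cadherin, the adherens junction cadherin of endothelium. Its level was 2.20, 2.02 and 2.63 FPKM in ASTs, 0.224, 0.110 and 0.133 in A-iSCs, 0.260, 0.208 and 0.260 FPKM in P56-NPCs, and 10.8, 8.56 and 10.98 FPKM in P0-NPCs. Every AST sample lay above every A-iSC and P56-NPC sample, and the latter 2 groups overlapped. ASTs had 14.6 times the mean of A-iSCs and 9.40 times that of P56-NPCs. The differences in log2(FPKM + 1) against ASTs were -1.50 ± 0.12 (SE, adjusted p = 5.7e-05) for A-iSCs, -1.40 ± 0.09 (adjusted p = 8.2e-06) for P56-NPCs and 1.76 ± 0.12 (adjusted p = 4.2e-06) for P0-NPCs.

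Esam (ENSMUSG00000001946, chr9:37528078-37538319), an adhesion molecule of endothelial tight junctions, had levels of 2.02, 2.39 and 2.23 FPKM in ASTs, 0.173, 0.0587 and 0.117 in A-iSCs, 0.402, 0.304 and 0.508 FPKM in P56-NPCs, and 8.11, 6.77 and 7.76 FPKM in P0-NPCs. The 4 groups did not overlap, with ASTs second to P0-NPCs and A-iSCs lowest. Esam in ASTs was 19.1 times its mean in A-iSCs (-1.53 ± 0.11, adjusted p = 3.8e-05) and 5.47 times that in P56-NPCs (-1.20 ± 0.09, adjusted p = 1.6e-05).

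Pecam1 (ENSMUSG00000020717, chr11:106654217-106750628), an adhesion molecule of endothelial contacts that leukocytes and platelets also carry, was at 0.0479, 0.0713 and 0.0432 FPKM in ASTs, and A-iSCs had 0.279, 0.169 and 0.168 FPKM. The level was 0.398, 0.570 and 0.536 FPKM in P56-NPCs and 4.81, 3.23 and 5.08 FPKM in P0-NPCs. The groups rose in this order without overlap, so that ASTs, second highest for Cdh5 and Esam, were lowest for Pecam1. A 9-gene microglia list, of cells of the leukocyte lineage, summed to 21.96 to 28.5 FPKM in ASTs, 210 to 272 in A-iSCs, 238 to 247 in P56-NPCs and 29.3 to 39.7 in P0-NPCs, with none of its genes at 0 in any group. Its part in the Pecam1 level was not tested.

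Tek and Tie1 encode the related receptor tyrosine kinases of the angiopoietin system. Tek (ENSMUSG00000006386, chr4:94739289-94874976) was at 0.165, 0.136 and 0.183 FPKM in ASTs, 0.179, 0.0536 and 0.0396 in A-iSCs, 0.122, 0.251 and 0.0773 FPKM in P56-NPCs, and 3.66, 2.88 and 3.57 FPKM in P0-NPCs. These first 3 groups overlapped, and P0-NPCs stood above them with 20.9 times the AST mean (1.91 ± 0.10, adjusted p = 1.1e-06). Tie1 (ENSMUSG00000033191, chr4:118471191-118490061, its promoter window above) was at 0, 0.0301 and 0 FPKM in ASTs, with A-iSCs at 0, 0 and 0.00759 FPKM. P56-NPCs had 0.176, 0.0760 and 0.148 FPKM and P0-NPCs 6.91, 5.16 and 6.39 FPKM. The AST values rested on 3 fragments in 1 library and the A-iSC value on 1 fragment. Tie1 in P0-NPCs relative to ASTs was 555-fold higher, with a 95% counting interval of 189.6 to 2692, and 46.1 times the P56-NPC mean (-2.65 ± 0.11, adjusted p = 5.3e-07).

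Emcn (ENSMUSG00000054690, chr3:137341067-137432185), a sialomucin of the endothelial surface that is most abundant in capillaries and veins, was the lowest of the members in P0-NPCs at 1.46, 0.883 and 1.42 FPKM. Its level was 0.0441, 0 and 0.0199 FPKM in ASTs, 0.0183, 0.0156 and 0 in A-iSCs, and 0.128, 0.0806 and 0.0786 FPKM in P56-NPCs. ASTs and A-iSCs overlapped, on 6 and 4 fragments over the 3 libraries of each group. P0-NPCs had 13.1 times the mean of P56-NPCs (-1.03 ± 0.13, adjusted p = 0.00019).

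Among the mural genes, Vtn (ENSMUSG00000017344, chr11:78499091-78502324) encodes vitronectin, a secreted adhesion protein that brain pericytes express strongly. Vtn was at 0.0294, 0.0486 and 0.0796 FPKM in ASTs, 0.855, 1.12 and 0.643 in A-iSCs, 3.97, 2.98 and 4.13 FPKM in P56-NPCs, and 51.2, 57.6 and 61.4 FPKM in P0-NPCs. No groups overlapped, and the mean in P0-NPCs was 15.4 times that in P56-NPCs (-3.63 ± 0.11, adjusted p = 1.6e-07) and 65.0 times that in A-iSCs. The AST level came from 6 fragments in all, and the ratio of P0-NPCs to ASTs from these counts was 1074, with a 95% counting interval of 493.3 to 2928.

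Rgs5 (ENSMUSG00000026678, chr1:169655501-169695813), a regulator of G protein signalling and a common pericyte marker, was at 0.354, 0.391 and 0.190 FPKM in ASTs, while A-iSCs had 0.513, 0.592 and 0.993 FPKM. The values in P56-NPCs were 1.51, 1.70 and 2.55 FPKM and those in P0-NPCs 37.5, 35.4 and 42.8 FPKM. Rgs5 thus had the same order of groups as Vtn and Pecam1, again without overlap. The mean in P0-NPCs was 20.1 times that in P56-NPCs (-3.77 ± 0.14, adjusted p = 2.9e-07), and the mean in P56-NPCs 6.16 times that in ASTs (1.14 ± 0.15, adjusted p = 0.00026).

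Pdgfrb (ENSMUSG00000024620, chr18:61045150-61085061), the receptor for PDGF-B on pericytes, smooth muscle cells and fibroblasts, was at 11.8, 9.32 and 12.2 FPKM in ASTs, and in A-iSCs it was at 2.41, 3.31 and 2.66 FPKM. It was at 5.24, 6.37 and 4.65 FPKM in P56-NPCs and 12.8, 11.4 and 12.3 FPKM in P0-NPCs. ASTs and P0-NPCs overlapped, and both lay above P56-NPCs, which lay above A-iSCs. The difference of P0-NPCs against ASTs was 0.13 in log2(FPKM + 1), with a 95% interval of -0.14 to 0.39 (adjusted p = 0.33), and it became 0.39 (adjusted p = 0.020) when samples were scaled by counted library total. Pdgfrb was the highest of the members in ASTs, A-iSCs and P56-NPCs, but below Vtn, Cldn5 and Rgs5 in P0-NPCs.

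**Figure D2:**
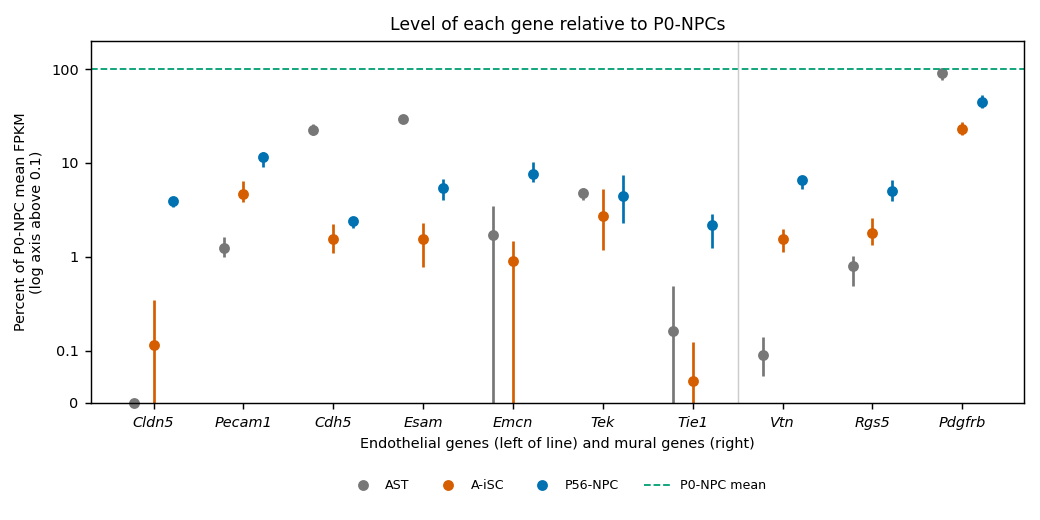
Mean FPKM of each gene in ASTs, A-iSCs and P56-NPCs as a percent of its mean in P0-NPCs (vertical axis, linear below 0.1 and logarithmic above). Points are means, lines run from the lowest to the highest of 3 samples, and the dashed line is the P0-NPC mean; Pdgfrb lies highest in each group, and Cdh5 and Esam in ASTs stand at 22.5% and 29.3%.

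Expressed as a percent of the P0-NPC mean, the members fell into unlike patterns in ASTs. Pdgfrb stood at 91.5%, Esam at 29.3% and Cdh5 at 22.5%, while Tek was at 4.79% and the other 6 ranged from 0 for Cldn5 to 1.70% for Emcn. In A-iSCs, Pdgfrb was at 23.0% and the other 9 ranged from 0.0411% for Tie1 to 4.69% for Pecam1. P56-NPCs ranged from 2.17% for Tie1 to 11.5% for Pecam1 over the 9 members other than Pdgfrb, which was at 44.6%.

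Ratios within a sample do not depend on the scaling between libraries. Cldn5 over Cdh5 was 5.10 ± 0.98 (SD, n = 3) in P0-NPCs, 8.33 ± 1.81 in P56-NPCs and 0 in each AST sample, in which Cdh5 had 532 fragments in all and Cldn5 had 0. In P56-NPCs, the lower level of the pair, that of Cdh5, rested on 51 fragments. Cldn5 over Pecam1 was 12.2 ± 3.8 in P0-NPCs and 3.999 ± 0.296 in P56-NPCs, so that these ratios moved in opposite directions between the suspensions, each without overlap. Pdgfrb over Rgs5 was 0.317 ± 0.028 in P0-NPCs, 3.02 ± 1.04 in P56-NPCs, 4.32 ± 1.49 in A-iSCs and 40.6 ± 21.3 in ASTs, and only P56-NPCs and A-iSCs overlapped. Vtn over Rgs5 was 1.48 ± 0.14 in P0-NPCs and 2.001 ± 0.552 in P56-NPCs, and these groups overlapped.

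The comparison of P56-NPCs with P0-NPCs sets the 2 suspensions of brain tissue against each other. Each group enters 3 of the 6 comparisons that follow, which therefore share samples. All 10 members passed the filter of a mean of at least 1 FPKM in a group and all 10 were lower in P56-NPCs, by -1.03 (Emcn) to -4.12 (Cldn5) in log2(FPKM + 1). Of all genes tested, 39% were lower and 39.7% higher in P56-NPCs, or 61.2% and 22.3% with samples scaled by counted library total. Since 6 members passed the filter through P0-NPCs alone and so had to differ, the fit of all genes with a value above 0 was also read, in which again 10 members were lower, beside 22.9% of all genes. Groups did not overlap for 10 of 10 members and 52.8% of all genes with a value above 0. The smallest fold was that of Pdgfrb, 2.24 (-1.04 ± 0.10, adjusted p = 4.8e-05), and the largest that of Tie1. The mitochondrial share, at least 16.5% in P56-NPCs and at most 5.55% in P0-NPCs, moved with these differences and its part was not tested.

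A wider list of 24 endothelial genes that are not members gave 23 lower in P56-NPCs and 1 higher. Of these, 18 passed the filter through P0-NPCs alone and so had to be lower, but without the filter the counts were again 23 and 1. The lower genes included Podxl (podocalyxin, 0.808 against 13.8 FPKM), Kdr (the main VEGF receptor, 0.535 against 7.31 FPKM) and Cd93 (0.121 against 4.84 FPKM). The exception was Fli1, an ETS transcription factor of endothelial and blood cells, at 1.81 ± 0.17 FPKM in P56-NPCs and 1.08 in P0-NPCs. Of 17 further pericyte genes, 16 passed the filter, of which 12 were lower, 9 of them through P0-NPCs alone, and 3 higher. Without the filter, 13 were lower and 3 higher. Lower were Cd248 (endosialin, 0.183 against 9.08 FPKM), Higd1b (0.350 against 6.51 FPKM) and Foxf2 (a forkhead factor of brain pericytes, 0.189 against 5.00 FPKM). Mcam (33.3 against 9.83 FPKM), Heyl (a Notch target, 6.38 against 1.88 FPKM) and Cspg4 (NG2, which oligodendrocyte precursors also carry, 5.85 against 2.23 FPKM) were higher.

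Markers of other cells were read in the same suspensions. A 9-gene list of fibroblasts of the meninges and vessel walls summed to 146 to 163 FPKM in P0-NPCs and 12.2 to 18.3 in P56-NPCs, and all 9 of its genes were lower in P56-NPCs. The 8-gene blood list summed to 326 to 508 FPKM in P56-NPCs and 169 to 323 in P0-NPCs, and no gene of it was at 0 in either. The smooth muscle list of 7 genes summed to 16.1 to 51.5 FPKM in P56-NPCs (median 18.6) and 21.5 to 31.0 in P0-NPCs, with 0 of 5 tested genes called. In P56-NPCs the SD exceeded the mean for Cnn1 (1.51 ± 2.35 FPKM), Des (1.43 ± 2.32) and Myh11 (0.645 ± 1.006). The lack of calls therefore does not show like levels. The part of these cells in the members' levels was not tested.

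P0-NPCs were next set against ASTs. All 10 members passed the filter, 7 of them through P0-NPCs alone, and 9 were higher in P0-NPCs, beside 38.1% of tested genes higher and 40.9% lower (46.3% and 31.6% with scaling by counted library total). Without the filter the same count of 9 stood beside 26.3% of genes. The log2(FPKM + 1) differences ran from 1.13 ± 0.13 for Emcn (adjusted p = 7e-05) and 1.41 ± 0.10 for Esam (adjusted p = 4.1e-06) to 5.69 ± 0.08 for Cldn5 (adjusted p = 1e-08) and 5.77 ± 0.09 for Vtn (adjusted p = 1.1e-08), and Pdgfrb did not pass the test. Groups did not overlap for 9 of 10 members and for 55.1% of all genes with a value above 0.

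In the 24-gene endothelial list, 22 were higher in P0-NPCs and 2 lower. The filter fixed the direction of 18 of the higher genes, which passed it through P0-NPCs alone, and without it 22 were higher and 1 lower. Ramp2 (a receptor partner needed for adrenomedullin signalling in vessels, 8.27 against 0.443 FPKM), Egfl7 (6.27 against 0.424 FPKM) and Cd93 (4.84 against 0.142 FPKM) were higher. Cd34 (3.45 against 6.43 FPKM) and Plvap (of fenestrated and immature vessels, 3.66 against 5.30 FPKM) were lower. Of the 15 pericyte genes that passed the filter, 10 were higher, 7 of them through P0-NPCs alone, and 3 lower in P0-NPCs, or 11 and 3 without the filter. Abcc9 (a potassium channel subunit of pericytes, 3.96 against 0.00689 FPKM) and Ndufa4l2 (5.37 against 0.280 FPKM) were higher, as was Higd1b, which had no fragment in ASTs. Mcam (9.83 against 86.3 FPKM), Cd248 (9.08 against 14.9 FPKM) and Cspg4 (2.23 against 2.92 FPKM) were lower.

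Of cells that share Pdgfrb, fibroblast genes summed to 154 to 205 FPKM in ASTs, of which Col1a1 had a mean of 158, with Igf2 at 0 in all 3 samples. The list's other genes went the other way: 8 of 9 were higher in P0-NPCs. Smooth muscle genes summed to 2235 to 2872 FPKM in ASTs, carried by Acta2 (1848), Myl9 (485) and Cnn1 (123), while the defining myosin Myh11 and desmin (Des) were at 0.149 and 0.179 FPKM. The part of either in the Pdgfrb level of ASTs was not tested. With the 9 higher members moved the blood list, 5 of 5 tested genes higher in P0-NPCs (Hba-a1, an alpha globin, 159 against 0.0202 FPKM), and the neuron list, 7 of 7 higher. Their part was not tested.

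**Figure D3:**
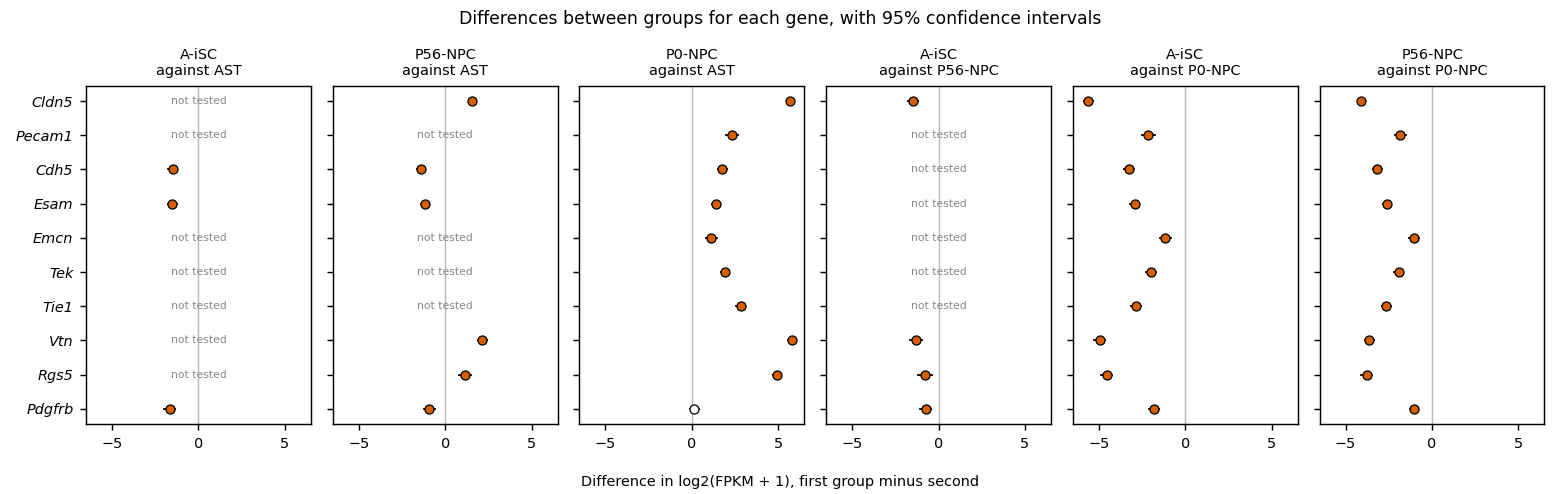
Differences in log2(FPKM + 1) for the 10 genes in the 6 comparisons, first group minus second, with 95% confidence intervals (horizontal lines). Filled points passed an adjusted p of 0.05 (limma), the open point did not, and genes under 1 FPKM on average in both groups were not tested; the open point is Pdgfrb in P0-NPCs against ASTs, at 0.13.

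The comparison of A-iSCs with ASTs asks what changed over 5 days of culture as spheres. No monolayer was sequenced after 5 days, so time in culture and sphere culture cannot be told apart. Of the 10 members, 3 passed the filter, 2 of them (Cdh5 and Esam) through ASTs alone, and 3 were lower in A-iSCs, beside 29.6% of tested genes lower and 25.2% higher (20.9% and 31.9% with scaling by counted library total). Pdgfrb, above the filter in both groups, was 3.98 times higher in ASTs (-1.68 ± 0.15, adjusted p = 8.3e-05). Without the filter, Vtn (0.82, adjusted p = 0.0022) and Pecam1 (0.19, adjusted p = 0.024) were higher in A-iSCs, beside 14.2% of all genes higher and 14.1% lower, and Rgs5 had a difference of 0.37 (adjusted p = 0.091). Vtn rose on 124 fragments over 3 A-iSC libraries against 6 in ASTs. Groups did not overlap for 6 of 10 members, tested or not, and for 41.6% of all genes with a value above 0.

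Of the wider endothelial list, 9 of 24 genes passed the filter in this comparison, 5 lower and 2 higher in A-iSCs, and without the filter 9 were lower and 5 higher. Kdr (0.511 against 2.46 FPKM), Eng (endoglin, a TGF-β co-receptor, 1.11 against 4.06 FPKM) and Cd34 (2.22 against 6.43 FPKM) were lower. Fli1 (4.80 against 0.746 FPKM) and Ctla2a (9.08 against 0.784 FPKM) were higher. In the pericyte list, 10 of 17 passed, 5 lower and 2 higher, against 5 and 5 without the filter. Mcam (6.70 against 86.3 FPKM), Cd248 (0.677 against 14.9 FPKM) and Tbx18 (a T-box factor of mural cells, 0.04996 against 1.74 FPKM) were lower, and Anpep (an aminopeptidase, 2.36 against 0.303 FPKM) and Ndufa4l2 (1.34 against 0.280 FPKM) higher. Smooth muscle genes fell as well, 4 of 4 tested, to a sum of 59.3 to 117 FPKM, and fibroblast genes to 11.7 to 14.5 FPKM, with 4 of 5 lower. Microglia genes rose, 8 of 8 tested, of which Csf1r went from 7.61 to 87.5 FPKM. The blood list went from 3.53 to 6.23 FPKM in ASTs to 25.2 to 39.0 FPKM in A-iSCs. Its 2 tested genes were both higher, Pf4 (28.4 against 3.89 FPKM) and Itga2b (2.46 against 0.608 FPKM). The list's other genes had A-iSC means from 0 (Hbb-bt and Gp9) to 0.121 FPKM (Ppbp), with the globin Hba-a1 at 0.102 FPKM. Whether any of these cells carried the members that moved was not tested.

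P56-NPCs differed from ASTs in both directions. Of 6 members that passed the filter, 3 through P56-NPCs alone (Cldn5, Vtn, Rgs5) and 2 through ASTs alone (Cdh5, Esam), 3 were higher and 3 lower, beside 39.1% of tested genes higher and 39.8% lower (31.2% and 51.5% with scaling by counted library total). Vtn was higher in P56-NPCs (2.15 ± 0.11, adjusted p = 2.3e-06), and on 6 AST fragments its ratio was 69.7, with a 95% counting interval of 31.7 to 191.1. Pdgfrb in P56-NPCs had 0.487 times its AST mean (-0.92 ± 0.13, adjusted p = 0.00053). Without the filter, 6 members were higher, Pecam1, Emcn and Tie1 in addition, and 3 lower, beside 26.2% and 22% of all genes. Tek had a difference of -0.02 (adjusted p = 0.84). Groups did not overlap for 9 of 10 members, tested or not, and for 55.7% of all genes with a value above 0. The blood list summed to 3.53 to 6.23 FPKM in ASTs, with Hbb-bs and Hbb-bt at 0. It moved with Cldn5, Vtn and Rgs5. So, without the filter, did 8 of 9 microglia, 8 of 8 astrocyte, 7 of 7 oligodendrocyte and 4 of 4 ependymal genes. Of 7 neuron genes, 6 were higher and 1 lower. Of 7 smooth muscle genes, 4 were lower and 0 higher, and of 9 fibroblast genes 4 were lower and 3 higher. The mitochondrial share was at least 16.5% in P56-NPCs and at most 4.70% in ASTs. The part of any of these in the members' differences was not tested.

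Of the wider endothelial list, 8 of 24 genes passed the filter here, 5 lower and 2 higher in P56-NPCs. Without the filter, 9 were lower and 8 higher. Podxl (0.808 against 8.02 FPKM), Plvap (1.36 against 5.30 FPKM) and Cd34 (1.87 against 6.43 FPKM) were lower. Ramp2 (3.36 against 0.443 FPKM) and Fli1 (1.81 against 0.746 FPKM) were higher. In the pericyte list, 10 of 17 genes passed, 5 lower and 3 higher, but without the filter 6 were lower and 7 higher. Cd248 (0.183 against 14.9 FPKM), Tbx18 (0.0303 against 1.74 FPKM) and Mcam (33.3 against 86.3 FPKM) were lower, while Heyl (6.38 against 0.0138 FPKM), Cspg4 (5.85 against 2.92 FPKM) and Art3 (1.04 against 0.285 FPKM) were higher.

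A-iSCs were compared with the suspensions last. Against P0-NPCs, all 10 members were lower in A-iSCs (9 passed the filter through P0-NPCs alone), beside 33.6% of tested genes lower and 31.5% higher, and without the filter 10 were lower, beside 20.2%. Groups did not overlap for 10 of 10 members and 47.2% of all genes with a value above 0. Differences ran from -1.15 ± 0.14 for Emcn (adjusted p = 0.00019) to -5.62 ± 0.11 for Cldn5 (adjusted p = 1.6e-07), and Pdgfrb had a difference of -1.80 ± 0.12 (adjusted p = 1e-05). Against P56-NPCs, 4 members passed the filter, 3 of them through P56-NPCs alone, and 4 were lower, beside 30.9% of tested genes lower and 30.1% higher (19.2% and 55.9% with scaling by counted library total). They were Cldn5 (-1.50 ± 0.12, adjusted p = 4.7e-05), Vtn (-1.32 ± 0.15, adjusted p = 0.00022), Rgs5 (-0.77 ± 0.17, adjusted p = 0.0067) and Pdgfrb (-0.76 ± 0.14, adjusted p = 0.0028). With library-total scaling the Pdgfrb difference was -0.31 (adjusted p = 0.078) and no longer passed. Without the filter, 8 members were lower, beside 18.1% of all genes, and groups did not overlap for 8 of 10 members and for 45.3% of all genes with a value above 0. Cdh5 and Tek, which overlapped between A-iSCs and P56-NPCs, had unfiltered differences of -0.11 (adjusted p = 0.19) and -0.08 (adjusted p = 0.48).

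Against P0-NPCs, 20 of the 24 endothelial genes were lower in A-iSCs and 2 higher (Fli1 and Ctla2a), but 17 of the lower genes passed the filter through P0-NPCs alone. Without it the counts were again 20 and 2. Of 15 tested pericyte genes, 12 were lower, 8 of them through P0-NPCs alone, and 0 higher, or 10 and 0 without the filter. In the same comparison, fibroblast (9 of 9), neuron (7 of 7) and blood genes (4 of 6 tested, 1 higher) were lower in A-iSCs. Without the filter, 9, 7 and 5 were lower. Microglia (8 of 9, 1 lower) and astrocyte genes (6 of 8, 0 lower) were higher, or 7 and 6 without the filter. Against P56-NPCs, 9 of the 24 endothelial genes passed the filter, 5 of them higher and 3 lower in A-iSCs, and without the filter 8 were higher and 6 lower. Ctla2a (9.08 against 0.615 FPKM), Podxl (4.61 against 0.808 FPKM) and Fli1 (4.80 against 1.81 FPKM) were higher, while Ramp2 (0.858 against 3.36 FPKM), Eng (1.11 against 1.89 FPKM) and Ly6c1 (0.907 against 1.46 FPKM) were lower. Of 9 pericyte genes that passed, 3 were lower and 2 higher, or 6 and 4 without the filter. Heyl (0.221 against 6.38 FPKM), Mcam (6.70 against 33.3 FPKM) and Cspg4 (1.93 against 5.85 FPKM) were lower, and Anpep (2.36 against 0.117 FPKM) and Ndufa4l2 (1.34 against 0.404 FPKM) higher. In A-iSCs against P56-NPCs, 7 of 7 oligodendrocyte genes and 6 of 7 neuron genes were lower, and of 8 tested microglia genes 5 were higher and 2 lower. Ependymal genes (4 of 4) and blood genes (5 of 7 tested, 2 higher) were lower as well. The mitochondrial share was 3.05% to 7.03% in A-iSCs and 16.5% to 17.6% in P56-NPCs. The part of any of these in the members' differences, here or against P0-NPCs, was not tested.

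The partners of the member proteins were read as a list of 19 genes of ligands, junction proteins and vitronectin binders. Of 18 tested in P0-NPCs against ASTs, 1 was higher and 15 were lower (38.1% and 40.9% of all genes tested), with a median of -1.58 against -0.07 over all genes. The higher gene was Angpt1, the activating ligand of Tek, at 5.74 ± 0.71 FPKM in P0-NPCs and 1.37 in ASTs. Angpt2, its context-dependent antagonist, was at 10.02 FPKM in ASTs, 1.08 in A-iSCs, 0.142 in P56-NPCs and 2.46 in P0-NPCs, and Pdgfb, the ligand of Pdgfrb, at 19.6, 6.22, 2.01 and 2.88 FPKM. Plaur (the urokinase receptor, which binds vitronectin) was at 48.1 FPKM in ASTs, 6.43 in A-iSCs, 0.598 in P56-NPCs and 0.775 in P0-NPCs. ASTs thus had the lowest Vtn level and the highest Plaur level of the 4 groups. From ASTs to A-iSCs, 3 of 18 tested partners rose and 11 fell, with a median of -0.79 against -0.06 over all genes, of which 25.2% rose and 29.6% fell (31.9% and 20.9% with scaling by counted library total). Vegfa, the main growth factor for endothelium, rose from 15.7 to 52.6 ± 18.3 FPKM (1.63, adjusted p = 0.00079).

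**Figure D4:**
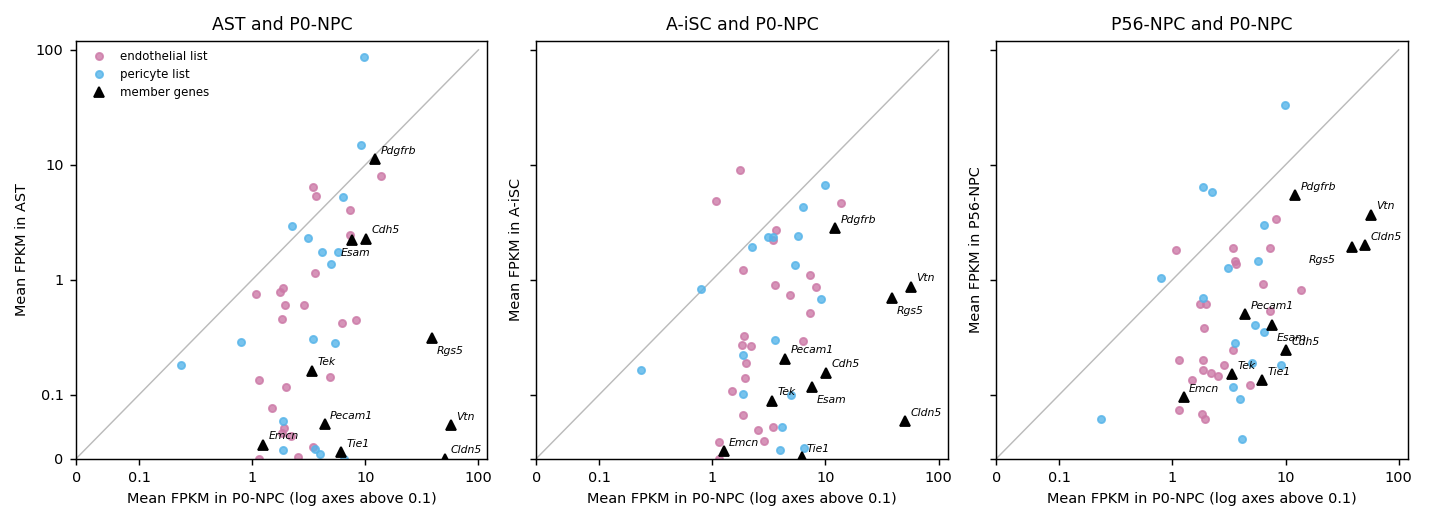
Mean FPKM in ASTs, A-iSCs and P56-NPCs (vertical axes) against the mean in P0-NPCs (horizontal axes) for the 10 members (triangles), 24 endothelial (pink) and 17 pericyte genes (blue), each axis linear below 0.1 and logarithmic above. The line marks equal levels; most genes lie below it, and the genes above it in ASTs include Mcam, at 86.3 against 9.83 FPKM.

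Genes with patterns most like the members' were sought among 13650 others by Pearson's r over the 12 samples, which share the high P0-NPC level and are therefore a description. Closest to the mean of the 7 endothelial members were Prdm8 (r = 0.998), Col6a3, Lhx9, Clstn2 and Rspo2 (each r = 0.996). Col6a3, a collagen VI chain, was at 4.38 ± 0.25 FPKM in P0-NPCs and 0.402, 0.106 and 0.346 FPKM in ASTs, A-iSCs and P56-NPCs. Closest to the 3 mural members were Slc22a8, Neurod2 (each r = 0.998), Dach1, Egfl7 and Cnr1 (each r = 0.996). Egfl7 is a secreted factor of endothelium, Slc22a8 encodes an organic anion transporter also found in brain capillaries, and Neurod2, a neuronal transcription factor, was at 0 FPKM in ASTs and A-iSCs and at 84.4 ± 11.5 FPKM in P0-NPCs. The most alike genes thus included ones of neurons and of connective tissue.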

How the data were processed

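RNA was extracted with Trizol, made into libraries with a NEBNext Ultra kit and sequenced in paired-end mode on an Illumina HiSeq. The authors deposited 1 table of FPKM for all 12 samples, with gene lengths. The submitters' processing notes name Bowtie 0.12.2 and mm8, but 54899 of 55154 shared gene identifiers had their GRCm38 position in the table. FPKM times gene length was a whole multiple (within 0.01) of 1 step per sample, which gave fragments per gene. The authors compared pairs of groups with a count model. Here limma 3.58.1 (R 4.3.3, eBayes with trend) was run on log2(FPKM + 1), after leaving out genes whose mean lay under 1 FPKM in both groups, with Benjamini-Hochberg adjustment over all of them and a threshold of 0.05. Differences are on that scale, which understates low genes. Tested on simulated data for A-iSCs against ASTs, the fit recovered most planted changes, with a share of false calls above the threshold used. Counting intervals (95%) and the floor of 3 fragments cover counting error only.

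The members, lists and partners were chosen with earlier results of these data known. Named from each list were up to 3 genes per direction with the largest difference among those called without overlap, and the 5 genes most like each set of members; not all of these are printed. Other named genes were chosen after their values were seen, and 1 gene is not reported here. Alternatives were a pseudocount of 0.1, no filter, scaling by library total or upper quartile, all 4 groups in the model, a replicate block, limma-voom on fragments and leaving out each sample. Sequences are RefSeq's (GRCm38.p6).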

Additional observations from a re-analysis of the deposited data

How the results depend on the processing

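Under the alternatives tried, no member changed direction. The fits without the filter, with all 4 groups and with the replicate block keep the group means, so there the direction was fixed. Of the member differences recomputed, 565 kept their side of the threshold, 10 newly passed it and 1 no longer did. The latter was Pdgfrb in A-iSCs against P56-NPCs, -0.31 with library-total scaling, and the cause was not tested. Those that newly passed were members first tested without the filter, apart from Pdgfrb in P0-NPCs against ASTs with library-total scaling. Without the filter, 5 members were called in A-iSCs against ASTs and 8 in A-iSCs against P56-NPCs, because more of them were tested. Leaving out each sample in turn gave 3, 10, 4, 9, 6 and 10 members for A-iSCs against ASTs, A-iSCs against P0-NPCs, A-iSCs against P56-NPCs, P0-NPCs against ASTs, P56-NPCs against ASTs and P56-NPCs against P0-NPCs, the same numbers each time. Genes called over all genes then ran from 6080 to 8937, 8550 to 11506, 7599 to 11226, 11147 to 12180, 11149 to 12506 and 11372 to 11840.

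Sizes depended on the scale: for Cdh5 in A-iSCs against ASTs, -1.50 became -3.24 with a pseudocount of 0.1 and -3.91 with limma-voom. Scaling by library total moved the median difference of all genes from -0.06 to 0.13 in A-iSCs against ASTs, from -0.07 to 0.21 in P0-NPCs against ASTs, from -0.03 to -0.34 in P56-NPCs against ASTs, from 0.03 to 0.49 in A-iSCs against P56-NPCs and from 0.01 to -0.53 in P56-NPCs against P0-NPCs. Upper-quartile scaling moved it to -0.17 in the first of these, and to -0.17 and -0.16 in P56-NPCs and P0-NPCs against ASTs.

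When replicate numbers entered the fit as a block, the counts of members called were again 3, 10, 4, 9, 6 and 10, and 7944 genes were called in A-iSCs against ASTs against 7715 without it. Same-numbered samples did not deviate together in every pair (correlations of -0.41, 0.35 and 0.45 in that comparison and between -0.15 and 0.10 in the others), so the numbers were not taken to pair samples. Depth limits Cldn5, Tie1, Emcn and Vtn in ASTs, each at 6 fragments or fewer over 3 libraries, and in A-iSCs Cldn5 (5 fragments, all in 1 library), Emcn (4) and Tie1 (1).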

Other observations

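Of 12 blood-brain barrier genes outside the members, 8 were higher and 3 lower in P0-NPCs than in ASTs, beside 38.1% and 40.9% of all genes tested. Of the 8, 5 passed the filter through P0-NPCs alone and so had to be higher, and without the filter 8 were higher and 2 lower. In P56-NPCs, 3 were higher and 7 lower than in P0-NPCs, beside 39.7% and 39% of all genes, and without the filter the counts were the same. Apcdd1, a Wnt inhibitor of barrier vessels, was at 0.391 FPKM in ASTs, 1.75 in A-iSCs, 2.37 in P56-NPCs and 20.9 in P0-NPCs, and Itm2a at 9.53, 2.44, 5.49 and 44.0 FPKM. Mfsd2a, a lipid transporter of the barrier, had its highest mean in ASTs, at 61.6 FPKM against 10.99 in A-iSCs, 43.2 in P56-NPCs and 11.7 in P0-NPCs. Ocln, which encodes occludin of tight junctions, was highest in P56-NPCs, at 5.81 ± 0.88 FPKM against 2.54 in P0-NPCs (difference 0.95, adjusted p = 0.00051), while Cldn5 was 25.5 times lower there than in P0-NPCs. Slc2a1, the glucose transporter of barrier endothelium that astrocytes also express, was at 49.9 FPKM in P56-NPCs and 21.3 in P0-NPCs (1.21, adjusted p = 0.00014).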
